A study of Mus musculus with 8 samples.

Results

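AMP-activated protein kinase (AMPK) is assembled from 1 catalytic α, 1 scaffold β and 1 regulatory γ subunit, and the mRNAs of all its subunit genes, with those of its 2 upstream kinases, were followed in liver and subcutaneous fat of mice on a high-fat diet (HFD). The 9 genes (Prkaa1, Prkaa2, Prkab1, Prkab2, Prkag1, Prkag2, Prkag3, Stk11 and Camkk2) were chosen by symbol out of 24532 gene IDs, and all 9 were found in every library. Poly(A) RNA had been sequenced from male C57BL/6 mice of 2 genotypes, WT and MKRN1-null. The null allele removes the E3 ubiquitin ligase MKRN1, which the study reports to act on AMPK, from the whole body, and the WT mice were littermates per the study's methods. According to the labels both genotypes had been on HFD for 19 weeks from 6 weeks of age, with an age of 24 weeks given, so that no library comes from mice on a normal diet. Each of the 4 groups (liver or fat, WT or MKRN1-null) held 2 libraries, and the liver and the fat library of a mouse carry the same number.

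AMPK senses a falling energy charge through AMP and ADP, which bind the γ subunit, and then switches off lipid synthesis and favours fuel burning. It becomes active when its α subunit is phosphorylated on the activation loop, in most tissues by LKB1 (the product of Stk11) with its partners STRAD and MO25, and after a rise in calcium by CaMKK2. The isoforms differ by tissue: rodent hepatocytes use α1 and α2 with β1, and skeletal muscle is known for α2, β2 and the γ3 subunit, which few other tissues make. In liver and fat AMPK is best known for the inhibition of acetyl-CoA carboxylase. RNA levels say nothing of the amount or phosphorylation of these proteins.

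The labels were checked before the members were read. Levels are FPKM, that is fragments scaled to transcript length and library size. Mkrn1 was at 9.42 and 10.1 FPKM in the WT livers and at 2.86 and 2.21 in the MKRN1-null livers, and at 16.8 and 19.3 in WT against 4.58 and 2.90 in MKRN1-null fat. All 8 hepatocyte markers reached an FPKM of 1 in each liver, and all 8 adipocyte markers in each fat library, so the tissue labels held. The 16 skeletal muscle markers set 1 library apart. Their summed FPKM was 47.5 and 314 in WT fat and 37.9 in MKRN1-null fat replicate 1, but 110100 in MKRN1-null fat replicate 2, where they took 20.7% of all FPKM and 15 of 16 reached an FPKM of 1 (Myh7, of slow fibres, was at 0.00137). In that library the brown fat marker Ucp1 was also at 32.6, against 0.0539 to 0.675 in the other 3. Cidea (33.2 against 10.4 to 16.7) and Cox8b (489 against 31.4 to 65.9) were higher too. Of the same list, Ppara was at 1.80 against 1.06 to 1.38, and Elovl3 was lower (0.779 against 0.970 to 2.18). The summed adipocyte markers were at 21980 against 34110 to 44970. The members' results on MKRN1-null fat are therefore given with and without replicate 2. Depth ran from 5.72 to 9.24 gigabases aligned per library, lowest in that same library, and was 6.05 to 7.46 in liver.

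The main α mRNA was not the same in liver and fat. Prkaa1 (Entrez 105787, mm10 chr15:5143861-5181899, plus strand) encodes α1 and Prkaa2 (Entrez 108079, chr4:105029650-105109898, minus strand) encodes α2. Prkaa1 was at 2.76 and 2.61 FPKM in the WT livers and at 9.68 and 10.8 in WT fat. Prkaa2 ran the other way, with 8.58 and 10.05 in WT liver and 1.38 and 1.54 in WT fat. The groups did not overlap for either gene, and the difference of liver minus fat on the log2(FPKM + 1) scale was −1.61 for Prkaa1 (standard error 0.11, adjusted p = 0.000163 from limma) and 2.06 for Prkaa2 (standard error 0.12, adjusted p = 0.000106). As α1 and α2 moved in opposite directions, the summed FPKM of both was alike in the tissues at the deposited scale. It was 11.3 and 12.7 in WT liver and 11.1 and 12.4 in WT fat. Prkaa2 therefore held 77.5% ± 2.62 (SD, n = 2) of the α FPKM in WT liver and 12.5% ± 0.0537 in WT fat. After median-of-ratios scaling, described below, the differences were −1.01 for Prkaa1 and 2.60 for Prkaa2, and the sum was not computed. With 2 libraries against 2 an exact permutation test cannot give a two-sided p below 0.33, so shares are given as descriptions.

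The stretches just before the start sites of both α genes are shown because their mRNAs went in opposite directions between the tissues, and those of Prkab2 and Prkag3 because these genes were highest with Prkaa2 in MKRN1-null fat replicate 2, as described further on. They are the 250 bases before each RefSeq start on GRCm38.p6 (the assembly behind mm10), read 5′ to 3′ along the gene, with each CG dinucleotide in capitals.
Prkaa1, chr15:5143611-5143860, plus strand: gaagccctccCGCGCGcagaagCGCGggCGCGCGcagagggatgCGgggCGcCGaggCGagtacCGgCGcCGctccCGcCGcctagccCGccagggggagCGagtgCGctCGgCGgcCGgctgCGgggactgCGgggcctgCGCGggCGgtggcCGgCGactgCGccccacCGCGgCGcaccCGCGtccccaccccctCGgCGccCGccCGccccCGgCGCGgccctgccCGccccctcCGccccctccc
Prkaa2, chr4:105109899-105110148, minus strand: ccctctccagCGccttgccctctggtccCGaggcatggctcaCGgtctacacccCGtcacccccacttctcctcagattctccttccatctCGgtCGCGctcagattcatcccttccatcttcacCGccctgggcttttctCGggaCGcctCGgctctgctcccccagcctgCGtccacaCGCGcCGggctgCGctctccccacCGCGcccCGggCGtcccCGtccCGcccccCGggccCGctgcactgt
Prkab2, chr3:97657962-97658211, plus strand: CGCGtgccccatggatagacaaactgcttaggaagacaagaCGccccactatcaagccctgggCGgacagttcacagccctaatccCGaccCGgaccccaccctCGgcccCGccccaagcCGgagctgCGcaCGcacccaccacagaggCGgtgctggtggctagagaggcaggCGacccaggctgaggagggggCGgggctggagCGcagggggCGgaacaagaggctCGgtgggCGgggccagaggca
Prkag3, chr1:74748956-74749205, minus strand: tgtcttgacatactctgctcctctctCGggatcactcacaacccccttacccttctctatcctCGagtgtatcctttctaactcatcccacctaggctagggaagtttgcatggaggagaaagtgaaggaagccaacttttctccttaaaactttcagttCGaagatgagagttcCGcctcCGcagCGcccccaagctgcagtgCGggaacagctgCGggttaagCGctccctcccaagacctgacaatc
Read on either strand, CG occurs 45 times in the stretch of Prkaa1, 24 times in that of Prkaa2, 18 times in that of Prkab2 and 9 times in that of Prkag3. Of 32851 mouse promoters of this length, 92.1% hold at least 1 CG and the median is 6. The share of promoters with fewer CG was 99.6% for Prkaa1, 88.0% for Prkaa2, 78.3% for Prkab2 and 59.7% for Prkag3. CG-dense promoters are common among genes used in many tissues, and all 4 genes had more CG than the median promoter. No methylation or factor binding was measured in these samples.

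Of the β subunits, Prkab2 was higher in fat, while the call of Prkab1 depended on the scaling. Prkab1 (Entrez 19079, chr5:116013590-116024428, minus strand), which encodes β1, was at 14.3 and 11.1 FPKM in WT liver and at 10.6 and 12.1 in WT fat. These ranges overlap, and the difference of 0.14 (standard error 0.15, adjusted p = 0.414) did not pass the test at the deposited scale, but was 0.82 (adjusted p = 0.00359) after median-of-ratios scaling, which sets each library to the median ratio of its genes. Prkab2 (Entrez 108097, chr3:97658212-97673067, plus strand), which encodes β2, was at 1.02 and 0.928 in WT liver and at 4.84 and 4.47 in WT fat. The difference was −1.52 (standard error 0.10, adjusted p = 0.000157). Prkab1 thus held 92.8% ± 0.758 of the β FPKM in WT liver and 70.8% ± 3.0 in WT fat (SD, n = 2 each). The summed β FPKM was 15.3 and 12.03 in WT liver and 15.5 and 16.5 in WT fat.

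All γ genes were higher in fat than in liver at the deposited scale. Prkag1 (Entrez 19082, chr15:98812797-98831508, minus strand), which encodes γ1, was the most abundant γ mRNA in all 8 libraries, with 25.7 and 23.0 FPKM in WT liver and 43.2 and 44.6 in WT fat. Prkag2 (Entrez 108099, chr5:24862735-25100642, minus strand), whose human counterpart is known for a cardiomyopathy with glycogen storage, was at 9.19 and 7.98 in WT liver and at 13.4 and 15.7 in WT fat. The differences were −0.83 for Prkag1 (standard error 0.09, adjusted p = 0.000902) and −0.69 for Prkag2 (standard error 0.13, adjusted p = 0.00502, and 0.0546 without WT liver replicate 2). Neither passed after median-of-ratios scaling, with −0.12 (adjusted p = 0.242) and −0.02 (adjusted p = 0.84). Prkag3 (Entrez 241113, chr1:74738922-74748955, minus strand), which encodes γ3, was at 0.118 and 0.0773 in WT liver and at 4.18 and 2.89 in WT fat. The difference was −2.03 (standard error 0.16, adjusted p = 0.000267). The γ shares of Prkag1 and Prkag2 were close in the tissues, with Prkag1 at 73.7% ± 0.470 in WT liver and 70.8% ± 0.356 in WT fat (SD, n = 2 each). Prkag3 held 0.293% ± 0.0627 in WT liver and 5.73% ± 1.64 in WT fat.

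**Figure D1:**
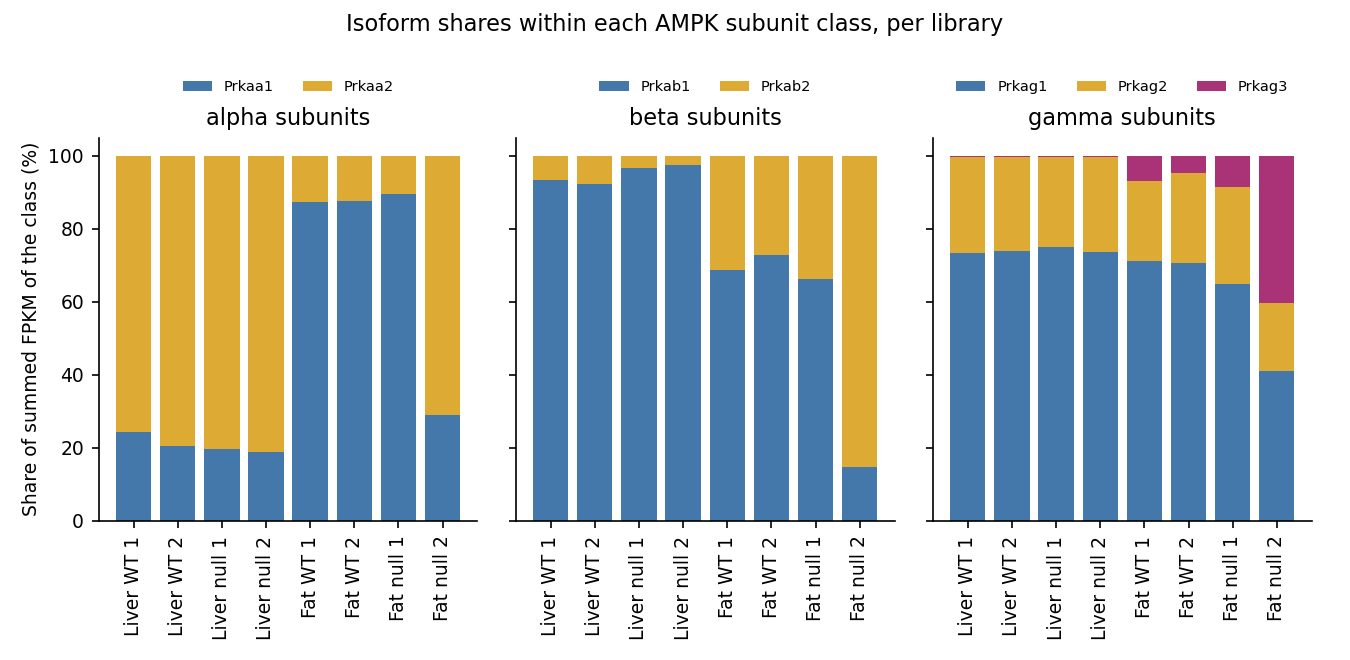
Share of each isoform in the summed FPKM of its subunit class (%, vertical axis) in each of the 8 libraries (horizontal axis), stacked by gene for α, β and γ. Prkaa2 holds 75.7 to 81.2% of the α bars in the 4 livers and 10.4 to 12.5% in 3 of the 4 fat libraries, while MKRN1-null fat replicate 2 stands at 70.9%.

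Of the upstream kinases, Camkk2 differed between the tissues and Stk11 had no direction that held. Stk11 (Entrez 20869, chr10:80115803-80130685, plus strand) was at 29.8 and 27.6 FPKM in WT liver and at 35.0 and 35.9 in WT fat, a difference of −0.30 (standard error 0.09, adjusted p = 0.0256) that turned to 0.41 (adjusted p = 0.00762) after median-of-ratios scaling. It also missed the threshold without WT liver replicate 2 (adjusted p = 0.0792) or without either WT fat replicate (0.0818 and 0.107). Its exons share 252 bases with those of Cbarp on the other strand, and since the library kit does not mark strand, reads there cannot be told apart. Camkk2 (Entrez 207565, chr5:122731170-122779410, minus strand) was at 1.86 and 1.60 in WT liver and at 6.24 and 7.46 in WT fat. The difference was −1.52 (standard error 0.13, adjusted p = 0.00034). FPKM of Stk11 over that of Camkk2 in the same library was 16.01 and 17.2 in WT liver and 5.62 and 4.82 in WT fat.

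In all, 1 of the 9 genes was higher in WT liver and 7 were higher in WT fat at an adjusted p under 0.05. The background was wide, since 17.9% of 12799 tested genes were called higher in liver and 62.3% lower, with a median difference of −0.59 over all genes. After median-of-ratios scaling, which moved that median to 0.02, 50.9% of the calls were higher in liver, against 22.3% before. Relative to the median at the deposited scale, the difference was 2.65 for Prkaa2, −1.02 for Prkaa1, −0.93 for Prkab2, −1.44 for Prkag3 and −0.93 for Camkk2. These 5 genes kept their direction and passed after the scaling as well, with differences of 2.60, −1.01, −1.03, −1.72 and −0.96. Prkag3 was tested only through the fat libraries and Prkab2 passed the filter through them, as at most 1 liver reached an FPKM of 1, so both had to be higher in fat to be tested. In tissue RNA, fewer cells of a type and less RNA per cell cannot be told apart.

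**Figure D2:**
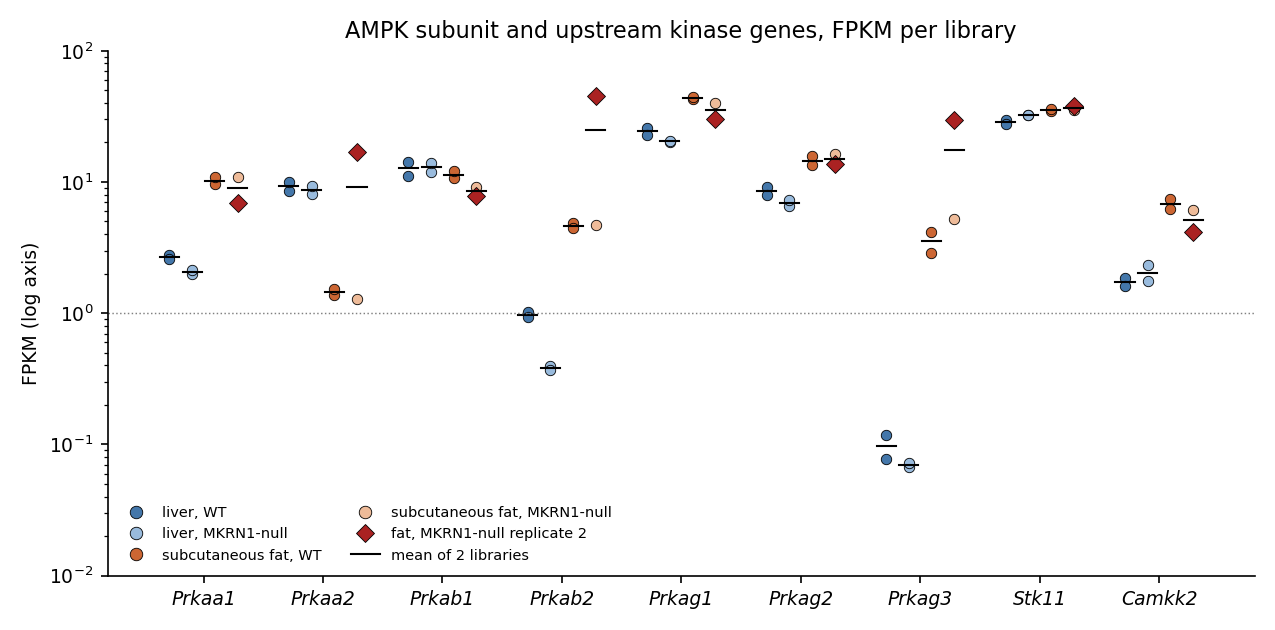
FPKM of the 9 genes (log axis) in each library, with the bar at the mean of the 2 libraries of a group and the dotted line at the filter of 1 FPKM. Prkaa1, Prkab2, Prkag3 and Camkk2 are higher in fat and Prkaa2 in liver among WT libraries, and the diamonds mark MKRN1-null fat replicate 2, which stands far above the other fat libraries for Prkaa2, Prkab2 and Prkag3.

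Next, MKRN1-null and WT livers were compared, to ask whether loss of the ligase comes with other levels of AMPK mRNAs. Of the 9 genes, 7 passed the filter and 0 were called, against a background of 16.9% of 10822 genes called lower and 2.51% called higher at an adjusted p under 0.05 from limma. Unadjusted, 2 of the 7 had a p under 0.05 from limma, as did 4278 of the 10822 genes. Prkaa1 was at 1.99 and 2.15 FPKM in the MKRN1-null livers, below both WT values, with a difference of −0.26 (95% confidence interval −0.51 to −0.01, adjusted p = 0.114). Prkag1 was at 20.1 and 20.6, also below both WT values, with −0.24 (−0.48 to −0.01, adjusted p = 0.118). Prkag2, at 6.59 and 7.30, gave −0.27 (−0.55 to 0.01, adjusted p = 0.137). The median of all liver genes was −0.17, so that these 3 lay within 0.1 of it, and after median-of-ratios scaling they were at −0.08, 0.01 and −0.04.

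Over whole transcripts the other tested liver genes were close to WT. Prkaa2, the main α mRNA of liver, was at 8.11 and 9.29 in MKRN1-null mice, overlapping WT, with −0.09 (−0.40 to 0.22, adjusted p = 0.617). Counted on the exons before the last exon alone, Prkaa2 did not overlap. It was at 5.38 and 5.76 in WT and at 4.09 and 3.995 in MKRN1-null liver (−0.38, a description without a test). Coverage before the last exon over that of the last exon was also lower in MKRN1-null liver across 1486 transcripts. The median of this ratio was 0.923 and 0.881 in WT and 0.835 and 0.828 in MKRN1-null liver. Its part in the Prkaa2 values was not tested. Prkab1, at 11.9 and 14.0, gave 0.03 (−0.36 to 0.43, adjusted p = 0.882). Camkk2, at 1.75 and 2.33, gave 0.15 (−0.20 to 0.50, adjusted p = 0.455). Stk11 was at 32.4 and 32.7, above both WT livers, with 0.17 (−0.04 to 0.39, adjusted p = 0.183), and was called at 0.43 (adjusted p = 0.038) after median-of-ratios scaling, where 5.22% of genes were called higher and 7.0% lower. None of the 7 reached a second criterion, which joins an unadjusted p up to 0.05 to a log2 difference of 0.58 or more in size (the study's limits on P and fold) and which 2.25% of liver genes passed upwards and 13.4% downwards.

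Prkab2 and Prkag3 were below the filter in liver and are given as values. In WT liver Prkab2 was at 1.02 and 0.928 FPKM, and MKRN1-null liver gave 0.397 and 0.367, on a mean coverage of 6.16 and 6.92 reads per base in WT and 2.50 and 2.40 in MKRN1-null mice. Both MKRN1-null livers were lower than both WT livers. Markers of fibroblasts, macrophages and endothelial cells were also lower in the same livers, except for Clec4f of the macrophage list. Its MKRN1-null values, 24.8 and 29.3, lay between those of WT replicate 2 (11.4) and WT replicate 1 (42.1). The summed FPKM of 5 fibroblast markers was 207 and 153 in WT and 56.0 and 58.3 in MKRN1-null liver, that of 6 macrophage markers 175 and 101 against 68.4 and 75.4, and that of 5 endothelial markers 41.4 and 25.5 against 17.1 and 21.4. All of these markers reached an FPKM of 1 in the WT livers, and in the MKRN1-null livers 4 of 5, 5 of 6 and 5 of 5 did, with none at 0. Their part in the genotype differences of liver was not tested. In the fit without a filter the difference was −0.51 (standard error 0.06, adjusted p = 0.0336). The share of Prkab1 in β FPKM was 93.4 and 92.3% in WT and 96.8 and 97.4% in MKRN1-null liver, while the α and γ shares of the genotypes differed by less, with Prkaa2 at 77.5% ± 2.62 and 80.7% ± 0.643 and Prkag1 at 73.7% ± 0.470 and 74.4% ± 1.04 (SD, n = 2 each). Counted on the exons before the last exon alone, Prkab2 was at 0.494 and 0.418 in WT and at 0.123 and 0.220 in MKRN1-null liver. Prkag3 was at 0.0669 and 0.0728 in MKRN1-null liver, with a mean coverage of 0.420 and 0.475.

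In fat, 3 subunit mRNAs were far higher in MKRN1-null replicate 2 and not in replicate 1. Prkaa2 was at 1.28 in MKRN1-null replicate 1, below both WT values, and at 17.0 in replicate 2. Prkab2 was at 4.67 in replicate 1, between the WT values, and at 44.9 in replicate 2. Prkag3 was at 5.24 in replicate 1, above both WT values, and at 29.9 in replicate 2. Against the mean of the other 3 fat libraries, MKRN1-null replicate 2 had 12.1 times the Prkaa2, 9.63 times the Prkab2 and 7.28 times the Prkag3. The groups overlapped for the first pair, and for Prkag3 both MKRN1-null libraries were above both WT libraries.

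**Figure D3:**
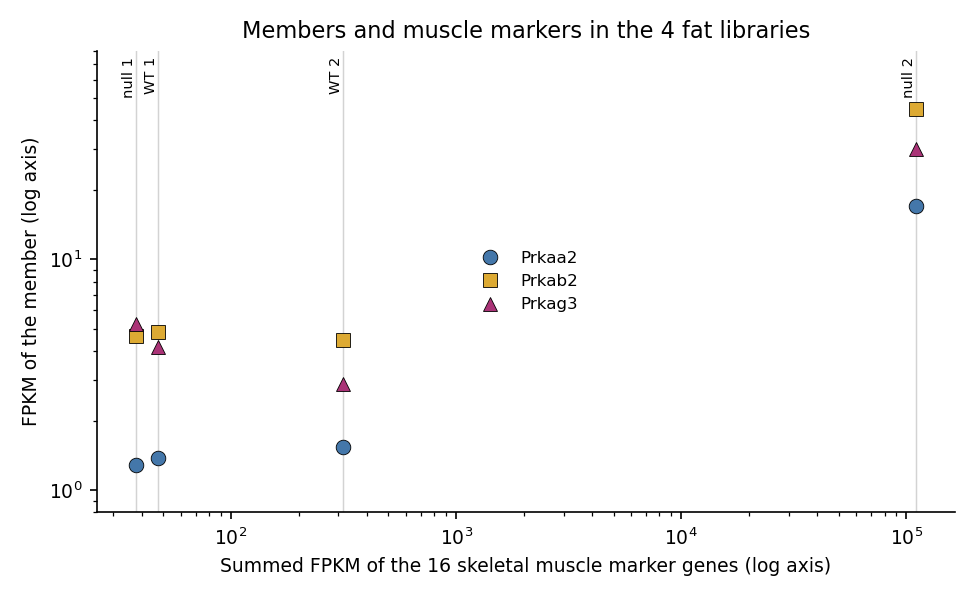
FPKM of Prkaa2, Prkab2 and Prkag3 (vertical log axis) against the summed FPKM of 16 skeletal muscle marker genes (horizontal log axis) in the 4 fat libraries, each marked by a grey line. All 3 genes are highest in MKRN1-null replicate 2, at a marker sum of 110100, while from 37.9 to 314 Prkaa2 rises with the sum (1.28 to 1.54) and Prkab2 and Prkag3 are lowest at 314.

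The muscle markers stand beside these values in the plot of members and markers. In MKRN1-null replicate 2 the α-actin of skeletal muscle, Acta1, was at 18460 FPKM against 20.3, 56.6 and 27.3 in the other fat libraries, and Myh4, the myosin of fast fibres, at 6999 against 0.267, 8.04 and 0.00. Among the other 3 libraries, WT replicate 2 had the highest sum of markers, 314, and the lowest Prkab2 (4.47) and Prkag3 (2.89), whereas MKRN1-null replicate 1 had the lowest sum, 37.9, and the highest Prkag3. Prkaa2 ran in the order of the sum, at 1.28, 1.38 and 1.54 for sums of 37.9, 47.5 and 314. The FPKM of Acta1 was 4.85, 19.6 and 5.21 times that of Prkag3 in these 3 libraries and 618 times in MKRN1-null replicate 2. The part of muscle RNA in the difference between MKRN1-null and WT fat was not tested.

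Prkag3 reads in the other fat libraries lay along the whole transcript. All 14 exons were covered in each of the 4 fat libraries, at a mean of 38.5 and 26.7 reads per base in WT, 47.7 in MKRN1-null replicate 1 and 171 in replicate 2. In the 4 livers 2 to 6 exons were covered, at a mean of 0.420 to 0.715. Coverage before the last exon was 1.31 and 0.824 times that of the last exon in WT fat, and 0.927 and 1.05 times in MKRN1-null fat.

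**Figure D4:**
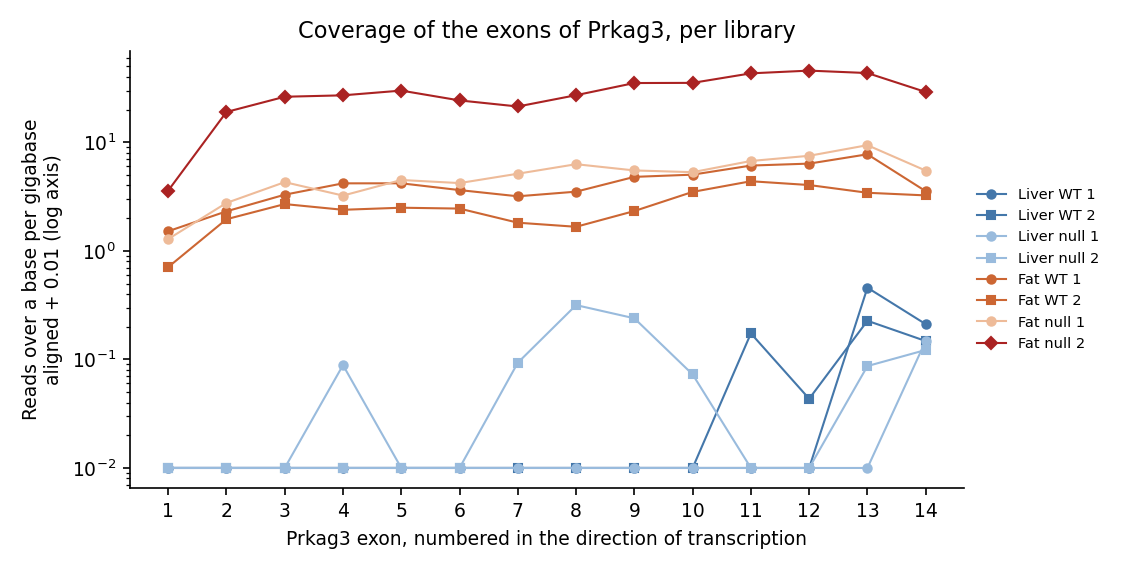
Coverage of the 14 exons of Prkag3, in reads over a base per gigabase aligned plus 0.01 (log axis), against the exon number in the direction of transcription, 1 line per library. The 4 fat libraries cover every exon, with MKRN1-null replicate 2 on top, and the livers sit at the floor over most exons.

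None of the 9 genes was called in fat, where 0.0% of 12164 genes were called at an adjusted p under 0.05 from limma (785 had an unadjusted p under 0.05, none of them a member). The differences were 1.38 for Prkaa2 (95% confidence interval −1.19 to 3.95), 1.51 for Prkab2 (−1.09 to 4.12) and 1.63 for Prkag3 (−0.42 to 3.67), each with an adjusted p of 0.68. Without MKRN1-null replicate 2 they were −0.11 (adjusted p = 0.79), 0.00 (adjusted p = 0.994) and 0.47 (adjusted p = 0.453). Without MKRN1-null replicate 1, which leaves the muscle-rich library alone, they were 2.87, 3.02 and 2.78, with adjusted p of 0.00222, 0.00212 and 0.00416. In both fits the lone MKRN1-null library is taken to vary like the WT libraries. The second criterion, which 0.707% of fat genes passed upwards and 5.36% downwards, was met by 0 of the 9.

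For the other 6 genes the genotypes of fat differed by less than 0.4 log2 units, and no difference passed the test. Prkab1 was at 9.20 and 7.80 FPKM, below both WT values, with −0.38 (−0.94 to 0.18, adjusted p = 0.68). Prkag1 was at 39.9 and 30.4, below both WT values, with −0.33 (−0.997 to 0.345, adjusted p = 0.684). Camkk2 was at 6.08 and 4.13, below both WT values, with −0.38 (−1.03 to 0.28, adjusted p = 0.68). For each of these 3 the lower value was that of MKRN1-null replicate 2, and without it the differences were −0.27, −0.14 and −0.14. Prkaa1, at 11.0 and 6.96, gave −0.20 (−0.93 to 0.52, adjusted p = 0.767) and 0.09 without MKRN1-null replicate 2. Prkag2, at 16.3 and 13.8, gave 0.05 (−0.55 to 0.64, adjusted p = 0.941) and 0.16 without that library. Stk11, at 35.4 and 38.2, gave 0.05 (−0.54 to 0.64, adjusted p = 0.935) and −0.0035 without it. Without MKRN1-null replicate 1, when 6290 of 12164 genes were called, 4 of the 6 passed the test, namely Prkaa1 (−0.50, adjusted p = 0.0382), Prkab1 (−0.49, adjusted p = 0.0423), Prkag1 (−0.52, adjusted p = 0.0227) and Camkk2 (−0.61, adjusted p = 0.0342). The median of all fat genes was −0.20.

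**Figure D5:**
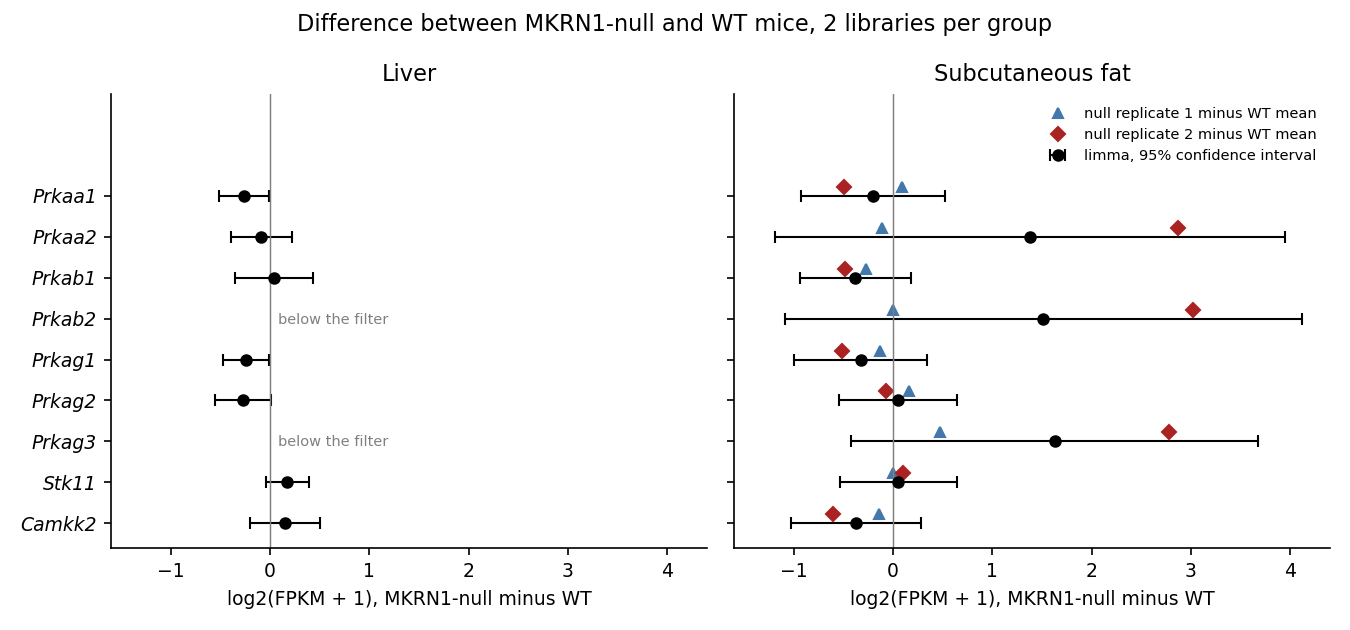
Difference between MKRN1-null and WT mice in log2(FPKM + 1) for each gene in liver (left) and fat (right), as the limma estimate with its 95% confidence interval from 2 libraries a group. In fat, triangles and diamonds give MKRN1-null replicates 1 and 2 minus the WT mean, and they part by over 2 log2 units for Prkaa2, Prkab2 and Prkag3.

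The subunit makeup of MKRN1-null fat accordingly depended on the library. In replicate 1 the shares were near those of WT fat, with Prkaa1 at 89.6% of α (87.5 and 87.6% in WT), Prkab1 at 66.3% of β (68.7 and 73.0%) and Prkag3 at 8.53% of γ (6.89 and 4.57%). In replicate 2 Prkaa2 held 70.9% of α, Prkab2 85.2% of β and Prkag3 40.4% of γ. The summed FPKM was 24.0 for α, 52.7 for β and 74.0 for γ in that library, against 11.1 to 12.4, 13.9 to 16.5 and 60.7 to 63.2 in the other 3. Prkaa1 in that library had 0.663 times the mean of the other 3.

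Whether the genotype difference itself differed between liver and fat was tested for the 7 genes that passed the filter in both tissues. None was called, and 0.0% of 9917 genes were (766 had an unadjusted p under 0.05, none of them a member). The liver difference minus the fat difference was largest for Prkaa2, at −1.47 (95% confidence interval −4.27 to 1.33, adjusted p = 0.82), which became 0.02 (adjusted p = 0.956) without MKRN1-null fat replicate 2 and −2.96 (adjusted p = 0.000505) without replicate 1. Camkk2 was at 0.53 (−0.14 to 1.19, adjusted p = 0.742) and became 0.29 (adjusted p = 0.456) without replicate 2 and 0.76 (adjusted p = 0.0477) without replicate 1. The other 5 lay between −0.32 (Prkag2) and 0.42 (Prkab1), and between −0.43 (Prkag2) and 0.31 (Prkab1) without replicate 2. Prkab2 and Prkag3 were not tested, being below the filter in liver.

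Most of the members are read from 1 annotated transcript, and 3 have several. For Prkag2 the long transcript NM_145401 of 16 exons held 69.7 to 96.2% of the gene's FPKM, lowest in MKRN1-null fat replicate 2 (69.7%) and WT liver replicate 2 (73.1%). The short NM_001170556 held 18.0 and 16.2% in these libraries and 0.143 to 5.003% in the other 6. For Stk11, NM_011492 held 90.2 to 95.7% in every library. For Camkk2, NM_145358 held 55.2% (MKRN1-null liver replicate 2) to 88.0% (WT fat replicate 1). Transcripts of 1 gene share most exons, and how StringTie divided shared reads among them limits these shares.

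Genes around the kinase were read from 3 lists. The list of upstream factors and regulators held 21 genes (partners of LKB1, sestrins, phosphatases and lysosomal anchors), of which 19 were tested in each comparison. In liver 0 were called higher and 3 lower in MKRN1-null mice. The 3 are 15.8% of the list, near the 16.9% of all genes called lower, and the median difference was −0.19 beside −0.17 for all genes. They were Strada, the STRADα partner of LKB1 (2.06 and 1.95 FPKM in the WT livers against 1.15 and 1.11 in the MKRN1-null livers, −0.50, adjusted p = 0.0333), Lamtor1, which anchors AMPK regulation at the lysosome (47.0 and 49.0 against 36.2 and 33.7, −0.45, adjusted p = 0.0301), and Ppp2ca, a catalytic subunit of protein phosphatase 2A (56.4 and 60.0 against 43.6 and 42.9, −0.42, adjusted p = 0.0311). The groups did not overlap for any of them, but the share of all liver genes without overlap was not counted. None passed after median-of-ratios scaling (adjusted p of 0.0765, 0.232 and 0.292). The calls of Lamtor1 and Ppp2ca were lost without any 1 of the 4 libraries. That of Strada was lost without WT replicate 1 (0.0725) or without MKRN1-null replicate 1 (0.146) or 2 (0.196).

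In fat 0 of the 19 were called, beside 0.0% of all genes. Strada alone passed the second criterion, at 6.27 and 7.13 FPKM in WT fat against 3.85 and 3.73 in MKRN1-null fat. Its difference was −0.68 (adjusted p = 0.68 from limma), −0.66 without MKRN1-null replicate 2 and −0.70 without MKRN1-null replicate 1. In the last of these fits Ppp1r3c was at 2.85 and Sesn2 at −1.53. Strada was thus below both WT libraries in both MKRN1-null libraries of each tissue. The share of all genes with this pattern was not counted, and the medians of all genes were −0.17 in liver and −0.20 in fat. Between the WT tissues 1 regulator was higher in liver (Stradb, 0.61) and 14 were higher in fat, or 5.26 and 73.7% of the list beside 17.9 and 62.3% of all genes. After median-of-ratios scaling 4 were higher in liver and 5 higher in fat, beside 34.9 and 33.6% of all genes. These 5, all among the 14, were Ppp2cb (−0.34 after scaling) and the 4 with the largest differences at the deposited scale, namely the sestrin Sesn2 (3.26 ± 0.896 in liver and 18.2 ± 2.64 in fat, −2.18, adjusted p = 0.000368), Lamtor1 (−1.70, adjusted p = 7.99e-05), Sesn1 (−1.68, adjusted p = 0.000382) and Strada (−1.36, adjusted p = 0.00031). The list median was −0.44, beside −0.59 for all genes.

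Of the 12 AMPK-related kinases that LKB1 also activates, 8 were tested in liver, where 1 was called higher and 0 lower. These are 12.5 and 0.0% of the tested kinases, beside 2.51 and 16.9% of all genes. Nuak2 was at 3.04 and 4.04 FPKM in the WT livers against 6.97 and 9.04 in the MKRN1-null livers, a difference of 0.99 (standard error 0.17, adjusted p = 0.0266) that was lost without WT replicate 1 (0.0702) or without MKRN1-null replicate 1 (0.0593) or 2 (0.13). Mark2 passed the second criterion alone, at 5.77 and 5.27 against 4.10 and 2.33 (−0.66, adjusted p = 0.095). In fat 0 of 10 were called, beside 0.0% of all genes, with Sik1 at −2.51 without WT replicate 2. By the second criterion 3 passed downwards, beside 5.36% of all genes. Sik1 was at 23.2 and 7.34 in WT against 3.97 and 2.63 in MKRN1-null fat (−1.74), Mark1 at 4.46 and 4.42 against 1.91 and 0.620 (−1.33) and Mark4 at 13.4 and 12.1 against 7.62 and 6.62 (−0.76), each with an adjusted p of 0.68. Without MKRN1-null replicate 2 the differences were −1.52, −0.90 and −0.67. Without MKRN1-null replicate 1, which leaves the muscle-rich library, Mark1 was at −1.75 and Mark4 at −0.85. In the same fit Snrk was at −1.22, Nuak2 at −0.67, Mark2 at −0.55 and Mark3 at −0.44. Sik3 went the other way in the muscle-rich library, at 8.3 FPKM against 7.75 and 7.62 in WT fat. The list medians were −0.31 in liver and −0.42 in fat, beside −0.17 and −0.20 for all genes.

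Between the WT tissues 2 of the 10 tested kinases were higher in liver (Sik3, 0.33, and Nuak2, 0.48) and 7 higher in fat. These are 20.0 and 70.0% of the tested kinases, beside 17.9 and 62.3% of all genes. The median was −1.33, beside −0.59 for all genes. After median-of-ratios scaling 2 were higher in liver and 6 in fat, beside 34.9 and 33.6% of all genes. The largest difference was that of Sik2, a salt-inducible kinase abundant in adipocytes, with 1.87 ± 0.309 in liver and 26.9 ± 3.49 in fat (−3.28, adjusted p = 4.09e-05). Mark1 (−1.92, adjusted p = 0.000114), Snrk (−1.61, adjusted p = 0.000844) and Mark2 (−1.44, adjusted p = 0.000166) followed. In the interaction 0 of 8 were called. By the second criterion, which 2.57% of genes passed with the liver difference higher and 3.90% with it lower, Nuak2 (1.33, adjusted p = 0.466, and 1.004 without MKRN1-null fat replicate 2) and Mark4 (0.62, adjusted p = 0.588, and 0.53 without it) passed. Without MKRN1-null fat replicate 1 Nuak2 was at 1.65 and Mark4 at 0.71.

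Of 26 genes whose proteins AMPK is known to phosphorylate, 24 were tested in liver, and 1 was called higher and 4 lower in MKRN1-null mice. These are 4.17 and 16.7% of the list, beside 2.51 and 16.9% of all genes, and the median was −0.19 beside −0.17. Of the lower genes, 3 are described. Gpam, which starts glycerolipid synthesis, went from 72.2 and 80.1 FPKM to 36.0 and 23.1 (−1.37, standard error 0.22, adjusted p = 0.0235). Acaca, the acetyl-CoA carboxylase of fat synthesis, went from 21.7 and 19.0 to 9.35 and 9.34 (−1.04, standard error 0.10, adjusted p = 0.0117). Tbc1d1, which restrains glucose transporter traffic, was at 2.53 and 1.85 against 0.918 and 0.806 (−0.77, adjusted p = 0.0293). It passed the filter through the WT livers alone, so it had to be lower in MKRN1-null liver to be tested. The higher gene was Hnf4a, a hepatocyte transcription factor, at 112 and 97.5 against 145 and 158 (0.53, adjusted p = 0.0355). The groups did not overlap for any of these 4, which for Tbc1d1 followed from the filter. How many of all liver genes lacked overlap was not counted. Acacb, the carboxylase of the mitochondrial surface, met the second criterion alone, with 20.6 and 16.7 against 11.96 and 5.84 (−1.05, adjusted p = 0.0801). Each of these 4 calls was lost without MKRN1-null replicate 2, with adjusted p from 0.069 to 0.175. That of Hnf4a was also lost without any other liver library (0.0513 to 0.0959), that of Gpam without WT replicate 1 (0.0643) or 2 (0.0616), and that of Tbc1d1 without WT replicate 1 (0.0556) or MKRN1-null replicate 1 (0.103).

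In fat 0 of 24 substrate genes were called, beside 0.0% of all genes, and 2 met the second criterion. Of these, Gys2, the glycogen synthase of liver, was at 25.7 and 20.0 against 12.9 and 3.57 (−1.57, adjusted p = 0.68). Without MKRN1-null replicate 2 the difference was −0.77. The list median was −0.08 in fat, and −0.18 without that library. Without MKRN1-null replicate 1 Gys2 was at −2.38 and Acacb at 2.08. Between the WT tissues 8 of 26 substrate genes were higher in liver and 13 higher in fat, or 30.8 and 50.0% beside 17.9 and 62.3% of all genes. After median-of-ratios scaling 13 were higher in liver and 7 in fat, while 34.9 and 33.6% of all genes were. The largest differences at the deposited scale were those of Hnf4a (105 ± 10.2 in liver and listed at 0.00 in both WT fat libraries), the lipases Lipe (−6.15) and Pnpla2 (−4.43), and the glycolytic regulator Pfkfb3 (−5.94). Hnf4a and Lipe also belong to the hepatocyte and adipocyte marker lists. Hnf4a passed the filter through the WT livers alone, so it had to be higher in liver to be tested. In the interaction 0 of 22 were called. By the second criterion 2 passed with the liver difference higher and 3 with it lower, beside 2.57 and 3.90% of all genes. The 4 largest were Acacb (−2.19), Gpam (−1.40), Tbc1d1 (−1.01) and Gys2 (1.71). Acacb was at 38.0 and Tbc1d1 at 8.70 in MKRN1-null fat replicate 2, against at most 9.64 and 4.94 in the other fat libraries, and without it their interaction was −1.24 and −0.53, while that of Gpam was −1.17 and that of Gys2 0.91. Acaca alone was called without that library (−0.78, adjusted p = 0.0468). Without MKRN1-null fat replicate 1 the interaction was −3.14 for Acacb, −1.64 for Gpam, −1.49 for Tbc1d1 and 2.52 for Gys2.

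Last, genes with a profile close to that of a member over the 8 libraries were looked for among 13069 genes, by the Euclidean distance between centred log2(FPKM + 1) values. Prkab1 and Stk11 were left out, as they varied by less than 1 log2 unit (0.80 and 0.45). For Prkaa1 the nearest were Glt8d1 (distance 0.12), Tctn3, Rab35, Cntln and Ids. For Prkaa2 they were Tpd52l1 (0.46), Prob1, Sar1b, Trim7 and Extl1, all lowest in the same 3 fat libraries. Tpd52l1 was at 4.03 to 4.37 FPKM in the livers, at 0.0518 to 0.0866 in these 3 fat libraries and at 8.54 in MKRN1-null fat replicate 2.

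For Prkab2 the nearest were Bin1 (0.38), Smarcd3, Schip1, Cacna2d1 and Mef2c, and for Prkag3 they were Popdc2 (0.69), Smarcd3, Hspb6, Tbx15 and Ptges3l. Smarcd3, of the SWI/SNF chromatin remodelling complex, was near both, with 1.64 to 2.28 FPKM in liver, 8.73 and 9.21 in WT fat, and 11.0 and 88.2 in MKRN1-null fat. Tbx15, a T-box transcription factor, was at 0.00 to 0.0187 in liver, 4.95 and 5.93 in WT fat, and 5.54 and 44.5 in MKRN1-null fat. The distances for this pair of members rest largely on 1 library. For Prkag1 the nearest were Rps6kc1 (0.10), Pla2r1, Usp48, Zfp518b and Rps16, for Prkag2 Atp2b1 (0.15), Angel2, Rps15, Pum2 and Vamp4, and for Camkk2 Sertad4 (0.27), Zbtb14, Pcdh19, Med27 and Phactr1. The points share tissue, depth and genotype, so the distances are descriptions.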

How the data were processed

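Liver and subcutaneous fat of 2 WT and 2 MKRN1-null mice gave 8 poly(A) RNA libraries, with 5.72 to 9.24 gigabases aligned in each. The authors deposited, for each library, coverage, FPKM and TPM of 36780 RefSeq transcripts on mm10, made with HISAT2, SAMtools and StringTie 1.3.3b; the study's methods name TopHat2, Cufflinks and HTSeq. These other, text-coded values are not counts, so no count test was used. Symbols were matched by Entrez ID to RefSeq of GRCm38.p6 (24462 of 24532).

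The FPKM of a gene is the sum over its transcripts. Genes that reached an FPKM of 1 in 2 or more of the 4 libraries of a tissue (or of the WT tissues) were fitted on log2(FPKM + 1) with limma 3.58.1 in R 4.3.3 (variance trend), with Benjamini-Hochberg adjustment over all genes tested. The pseudocount of 1 shrinks the differences of low genes. The fit was tested on simulated data. Tables and figures were made with Python 3.11.15, pandas 2.3.3 and matplotlib 3.10.9. Liver and fat libraries of a mouse share a number in the titles; over 9917 genes the deviations of such libraries correlated at 0.0803 in WT and 0.0918 in MKRN1-null mice. With 2 libraries per group, p measures the spread between these mice. The share of all genes whose groups do not overlap was not counted in any comparison, so non-overlap is a description. Members and lists were chosen with earlier results of these data known. All members were named in every library, and from each list up to 4 genes with the largest difference among those meeting either criterion; Stradb, Sik3, the liver value of Hnf4a, and the tissue value of Nuak2, were named after their values were seen. The values of 1 substrate gene are not reported here.

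Alternatives were a pseudocount of 0.1, no filter, TPM, median-of-ratios scaling, a replicate block, the fit without each library in turn, 7 or 8 libraries for the tissue comparison and the highest transcript alone for shares. Levels from the exons before the last one were added after seeing the data.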

Additional observations from a re-analysis of the deposited data

How the results depend on the processing

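Levels rest on 2 libraries a group, at 5.72 to 9.24 gigabases aligned, so that Prkab2 and Prkag3 in liver stay descriptions. The count of members called in liver was 1 in place of 0 without a filter (Prkab2) and 1 after median-of-ratios scaling (Stk11). In fat it was 3 with the replicate block (Prkaa2, Prkab2 and Prkag3, with 421 genes in all in place of 0) and 0 to 7 without 1 library. In the interaction it was 0 to 2 without 1 library. Genotypes share only a replicate number, whose libraries deviated together at −0.0355 in liver and 0.0863 in fat, and the block changed no other call of a member, the tissue comparison (same mouse) included. Between WT tissues 7 of 9 were called after scaling (Prkab1 gained, Prkag1 and Prkag2 lost), in place of 8, and 6 to 8 without 1 library. With all 8 libraries Prkaa2 was at 1.33 (adjusted p = 0.0777) and without MKRN1-null fat replicate 2 at 2.07 (adjusted p = 1.21e-06).

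Over all genes, calls in liver numbered 2106, but 1322 after median-of-ratios scaling (57.3% lower in place of 87.1%) and 55 to 1880 without 1 library. In fat, 4 to 6290 were called without 1 library, and in the interaction 66 without a filter, 4 after scaling and 0 to 2647 without 1 library.

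Some differences changed sign. After median-of-ratios scaling these were Prkaa2 (0.15) and Prkag1 (0.0089) in liver, Prkaa1 (0.0188) in fat and Stk11 (0.41) between tissues. With TPM they were Prkab1 in liver (−0.0262) and between tissues (−0.0236), and Prkag2 (−0.0509) and Stk11 (−0.0499) in fat. Without 1 library, Prkaa2 ran from −0.19 to 0.0156 and Prkab1 from −0.13 to 0.20 in liver, and Prkab1 from −0.0270 to 0.31 between tissues. In fat, Prkaa1 ran from −0.50 to 0.0909, Prkaa2 from −0.11 to 2.87, Prkag2 from −0.0688 to 0.16 and Stk11 from −0.0035 to 0.10. In the interaction, Prkaa1 ran from −0.35 to 0.24, Prkaa2 from −2.96 to 0.0223 and Prkag1 from −0.11 to 0.27. The share of Prkag1 in γ FPKM, from the highest transcript alone, was 77.3% in WT liver and 72.4% in WT fat. Levels from the exons before the last one moved Prkaa2 in liver to −0.38 and, between WT tissues, Prkaa2 to 1.78 and Prkab2 to −1.32. The cause was not tested.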
